A study of Mus musculus with 2 samples.

Results

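Small nucleolar RNA (snoRNA) and small Cajal body RNA (scaRNA) genes were examined in total RNA of the mouse adrenal gland. The members were the genes that the annotation types as snoRNA or scaRNA and that reached at least 1 TPM, a transcript abundance scaled by length and depth, in the gene tables of both libraries. There were 107 of them, 90 typed as snoRNA and 17 as scaRNA, among 1558 annotated genes of the 2 types and 55536 annotated genes in all. They lay at 102 separate loci, since each of 5 U3 loci is annotated under 2 overlapping gene IDs. The members were chosen by their TPM values, so their levels are given as a description, without a test.

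The glands came from B6CASTF1/J female mice, a cross of C57BL/6J with CAST/EiJ, which were 10 days old. The series holds 1 group of untreated tissue with 2 libraries, replicate 1 and replicate 2, each made from 300 ng of RNA depleted of ribosomal RNA with a strand-marking kit. The labels name another female for each tissue but repeat 1 female and 1 donor entry for both libraries, so n = 2 may not stand for separate animals and the spread may be technical. The libraries held 35636846 and 33378436 expected counts in replicates 1 and 2, and 14179 genes reached 1 TPM in both. All 6 markers of the adrenal cortex and all 5 of the medulla were detected in both libraries, while kidney markers summed to 0.79 TPM in replicate 1 and 195 TPM in replicate 2, and liver markers to 5094.8 and 982 TPM.

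SnoRNAs are short nuclear RNAs that pair with a target RNA and bring a modifying enzyme to it. Box C/D snoRNAs guide methylation of the ribose by fibrillarin, and box H/ACA snoRNAs guide conversion of uridine to pseudouridine by dyskerin. Most act on ribosomal RNA, a few such as U3 are needed for cleavage of the ribosomal precursor, and scaRNAs act on spliceosomal RNAs in Cajal bodies. In mammals most are cut from the introns of a host gene after splicing.

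The sequences of the members with the highest levels, or with a near copy at another level, show what was counted. They were taken from the transcripts of the GENCODE M21 annotation, on mm10 and 5′ to 3′. Capitals mark the ACA box near the 3′ end, or the C box TGATGA and the D box CTGA where both were found. A CTGA found without a C box, as in U3 and Snord118, stays in lower case. In the second and later copies of a group, capitals instead mark bases that differ from, or are inserted relative to, the first copy in a global alignment, and missing bases are not marked. Gm22988 (chr11:69669635-69669778, minus strand), an H/ACA-type RNA in intron 4 of Eif4a1, had the highest level, and Gm25291, Gm24727 and Gm25117 differ from it by 4, 9 and 13 edits:
Gm22988: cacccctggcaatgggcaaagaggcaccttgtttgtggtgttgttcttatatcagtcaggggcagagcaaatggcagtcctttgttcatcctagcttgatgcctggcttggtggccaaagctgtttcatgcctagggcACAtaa
Gm25291: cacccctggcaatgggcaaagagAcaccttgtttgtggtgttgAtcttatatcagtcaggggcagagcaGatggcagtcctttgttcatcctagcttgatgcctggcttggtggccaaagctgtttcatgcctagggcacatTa
Gm24727: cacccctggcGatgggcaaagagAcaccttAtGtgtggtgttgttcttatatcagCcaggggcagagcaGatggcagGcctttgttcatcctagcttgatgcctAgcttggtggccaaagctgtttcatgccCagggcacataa
Gm25117: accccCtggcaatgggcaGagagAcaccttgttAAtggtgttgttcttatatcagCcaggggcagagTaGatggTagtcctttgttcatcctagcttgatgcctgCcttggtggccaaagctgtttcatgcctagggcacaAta
Gm25291 lies at chr11:51737779-51737922, minus strand. Gm24727 lies at chr8:33691801-33691944, plus strand. Gm25117 lies at chr10:111481493-111481636, plus strand.

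Gm26447 (chr16:23111301-23111429, plus strand) had the next highest level and held neither box pattern in the searched windows:
Gm26447: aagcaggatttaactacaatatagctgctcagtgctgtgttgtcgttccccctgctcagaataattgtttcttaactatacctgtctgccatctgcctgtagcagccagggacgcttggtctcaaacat

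Snora73b (chr4:132352322-132352526, minus strand) and Snora73a (chr4:132352775-132352979, minus strand) share host Snhg3, and Gm26448 (chr9:120129351-120129553, plus strand) is a relative in Rpsa. They differ from Snora73b by 7 and 25 edits:
Snora73b: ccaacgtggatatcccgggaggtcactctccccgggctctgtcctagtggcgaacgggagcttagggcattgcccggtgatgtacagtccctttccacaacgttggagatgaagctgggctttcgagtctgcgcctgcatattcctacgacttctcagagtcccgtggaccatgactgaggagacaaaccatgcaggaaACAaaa
Snora73a: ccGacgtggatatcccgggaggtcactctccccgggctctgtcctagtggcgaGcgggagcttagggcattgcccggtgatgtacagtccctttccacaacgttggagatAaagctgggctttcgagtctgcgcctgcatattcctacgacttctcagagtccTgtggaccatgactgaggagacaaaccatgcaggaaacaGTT
Gm26448: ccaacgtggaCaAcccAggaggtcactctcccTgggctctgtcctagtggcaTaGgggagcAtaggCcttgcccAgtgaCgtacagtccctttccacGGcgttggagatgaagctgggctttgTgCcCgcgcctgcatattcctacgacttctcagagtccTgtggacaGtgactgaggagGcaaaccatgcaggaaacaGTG

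U3 is shown as the longer Rnu3b form at the Rnu3b1 locus (chr11:87443237-87443452, plus strand) and as the longer Rnu3a form (chr10:40258467-40258680, plus strand). The windows searched held no box pattern in U3, and the forms differ by 32 edits:
Rnu3b1: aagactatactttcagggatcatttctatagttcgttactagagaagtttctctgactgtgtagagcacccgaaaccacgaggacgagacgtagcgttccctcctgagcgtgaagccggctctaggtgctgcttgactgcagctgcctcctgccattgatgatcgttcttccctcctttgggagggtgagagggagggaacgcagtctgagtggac
Rnu3a: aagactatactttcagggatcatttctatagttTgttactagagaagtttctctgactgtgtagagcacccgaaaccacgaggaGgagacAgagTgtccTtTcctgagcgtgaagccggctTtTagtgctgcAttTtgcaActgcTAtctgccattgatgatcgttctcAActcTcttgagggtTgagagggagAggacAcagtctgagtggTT

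The C and D box patterns were both found in the members shown next. These are Gm25835 of Eif4a1 (chr11:69668852-69668995, minus strand), Snord15b of Rps3 (chr7:99479563-99479707, minus strand), Gm22486 of Ptcd3 (chr6:71882557-71882693, minus strand), which RefSeq names Snord94, and the scaRNA Scarna6 of Atg16l1 (chr1:87784556-87784820, plus strand):
Gm25835: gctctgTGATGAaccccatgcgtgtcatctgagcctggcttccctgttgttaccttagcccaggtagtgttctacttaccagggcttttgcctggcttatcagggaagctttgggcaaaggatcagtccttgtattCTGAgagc
Snord15b: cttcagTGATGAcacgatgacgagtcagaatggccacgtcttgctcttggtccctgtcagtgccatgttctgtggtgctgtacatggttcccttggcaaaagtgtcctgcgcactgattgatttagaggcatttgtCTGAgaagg
Gm22486: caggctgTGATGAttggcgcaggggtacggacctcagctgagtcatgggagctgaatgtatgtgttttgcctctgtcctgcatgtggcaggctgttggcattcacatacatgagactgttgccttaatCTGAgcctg
Scarna6: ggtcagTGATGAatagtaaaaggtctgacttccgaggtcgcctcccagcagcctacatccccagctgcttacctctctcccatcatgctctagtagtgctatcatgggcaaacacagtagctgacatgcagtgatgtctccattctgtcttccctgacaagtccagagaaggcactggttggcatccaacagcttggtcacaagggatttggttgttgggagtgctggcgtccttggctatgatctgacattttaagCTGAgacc

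A pair of near copies at very different levels is Gm25791 (chr9:15314845-15314981, plus strand) and Gm26236 (chr2:32675109-32675245, plus strand), and another is Snora57 (chr19:8888538-8888685, minus strand) and Gm26132 (chr8:110923116-110923263, plus strand):
Gm25791: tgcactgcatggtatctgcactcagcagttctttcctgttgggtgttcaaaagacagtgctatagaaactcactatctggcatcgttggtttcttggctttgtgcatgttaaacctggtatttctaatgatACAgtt
Gm26236: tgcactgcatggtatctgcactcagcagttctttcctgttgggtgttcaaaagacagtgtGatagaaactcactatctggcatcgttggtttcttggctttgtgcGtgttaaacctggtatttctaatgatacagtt
Snora57: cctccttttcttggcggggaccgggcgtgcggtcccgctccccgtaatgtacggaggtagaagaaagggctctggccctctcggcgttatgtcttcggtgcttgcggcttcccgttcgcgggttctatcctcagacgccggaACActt
Gm26132: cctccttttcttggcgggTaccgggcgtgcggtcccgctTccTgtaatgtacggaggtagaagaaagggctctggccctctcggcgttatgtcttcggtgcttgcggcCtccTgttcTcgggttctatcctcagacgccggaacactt

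Snord118, the U8 RNA needed for maturation of the large ribosomal subunit, lies at chr11:69073427-69073561, plus strand:
Snord118: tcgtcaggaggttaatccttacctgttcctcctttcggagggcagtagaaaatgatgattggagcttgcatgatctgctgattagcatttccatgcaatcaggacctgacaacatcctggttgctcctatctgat

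The 107 members together took 17634.8 TPM in replicate 1 and 16523.4 TPM in replicate 2, or 1.76% and 1.65% of all TPM. In expected counts they took 56641.6 and 49984.4 in replicates 1 and 2, only 0.161% and 0.151% of the libraries. TPM divides by length, and the tables subtract 99 nt from each annotated length. This left the members 22 to 315 nt (median 38 nt) of effective length. The median member stood at 45.6 TPM in replicate 1 and 37.1 TPM in replicate 2. In both libraries 34 members reached 100 TPM and 77 reached 10 TPM. The 3 highest genes held 25.8% and 26.8% of the members' TPM in replicates 1 and 2, and the 10 highest held 52.6% and 55.2%. Across members, the level in replicate 1 followed that in replicate 2 with a Spearman rho of 0.984, given as a description over 107 genes that share both libraries.

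**Figure D1:**
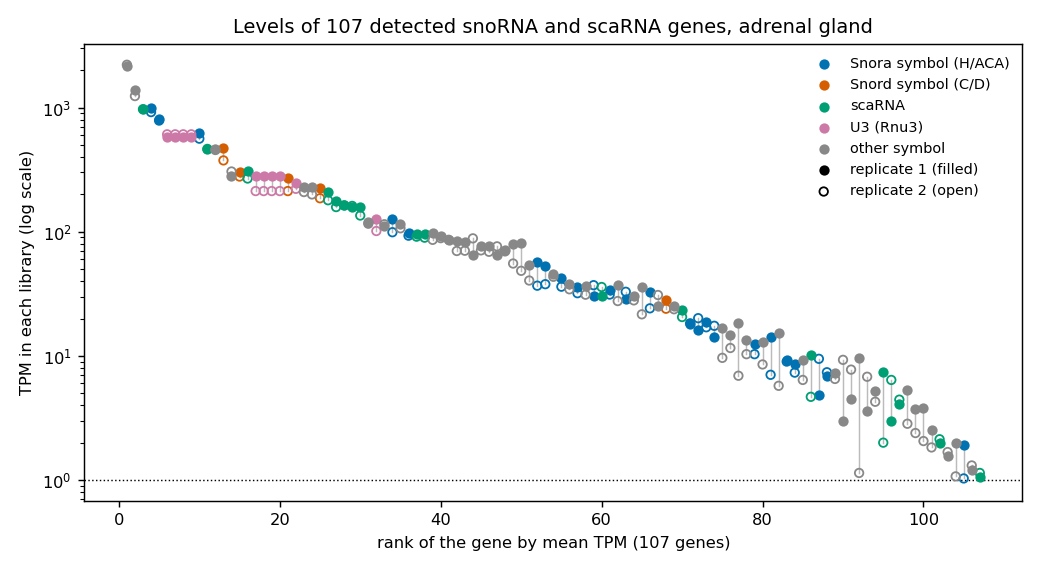
TPM (log scale) of each of the 107 members in replicate 1 (filled points) and replicate 2 (open points), in order of their mean, coloured by the class their symbol gives. Levels run over more than 3 powers of 10 and the libraries separate mainly below 10 TPM, where members rest on few counts.

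Only annotated genes of at least 121 nt were among the members. Of the 1558 genes, 462 were up to 99 nt long and had an effective length of 0, so the gene tables list all of them at 0 counts and give no measurement of them. A further 139 genes of 100 to 120 nt held no member. Among 893 genes of 121 to 150 nt there were 78 members (8.73%), with a median of 27.0 TPM, and among 64 longer genes there were 29 (45.3%), with a median of 246 TPM. Longer members stood higher, with a Spearman rho of 0.584, and of 0.665 when the whole length replaced the effective length (over 107 genes). In both libraries 1378 genes stood at 0 counts, the 462 without an effective length included. For the others a count of 0 allows up to 3 counts, and the highest count of a gene outside the member set was 7.1.

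**Figure D2:**
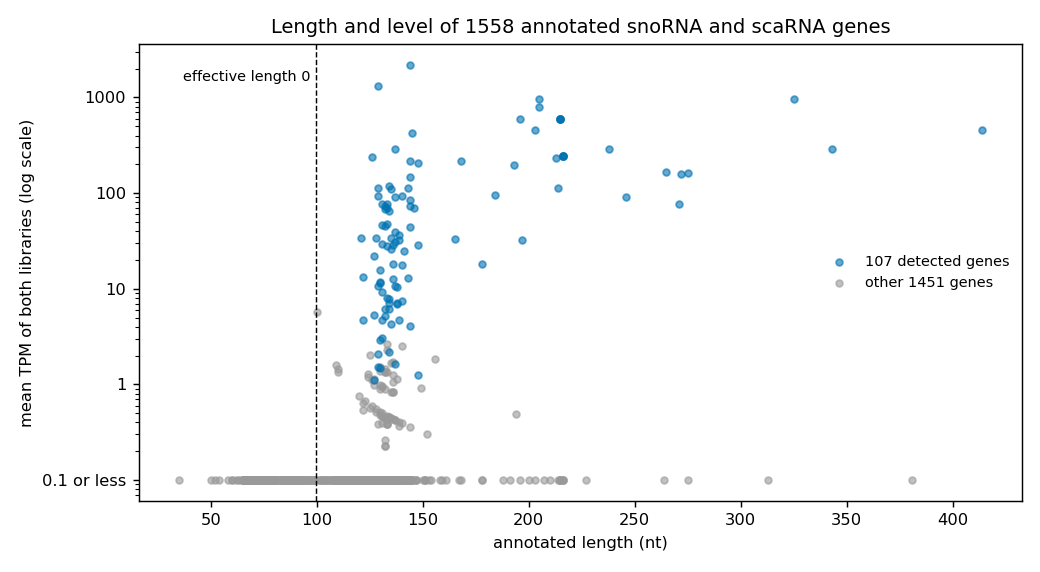
Annotated length (nt) against mean TPM of both libraries (log scale, values of 0.1 or less drawn at 0.1) for all 1558 snoRNA and scaRNA genes, with the 107 members in blue. No gene to the left of the dashed line, at up to 99 nt, has a value above 0, and members start at 121 nt.

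This length limit fell mostly on box C/D genes. Of 98 genes with a Snord symbol, 87 were up to 99 nt long and 5 were members, whereas 24 of 42 genes with a Snora symbol were members and none of those 42 was that short. The C and D boxes were both found in 61.5% of the 462 genes of up to 99 nt and in 1.55% of the 1096 longer ones. The searches took TGATGA in the first 20 bases and CTGA in the last 12, and ACA ending 3 to 5 bases before the 3′ end, on the RNA strand only, and the patterns can occur together. Among members, 10 held both C and D boxes (9.35%, against 19.3% of all 1558 genes) and 63 held ACA (58.9%, against 20.5%). The other 34 held neither ACA nor both C and D boxes, and some of these held CTGA alone. Among the 989 genes from 100 nt that were not members, 23.7% held ACA and 0.708% held C and D boxes. These matches describe letters in a window and are not functional sites.

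Known imprinted C/D genes fell under this limit. All 17 Snord116 genes are 94 nt long and Snord64 is 67 nt, so both were listed at 0, although their host Snhg14 stood at 6.24 TPM in replicate 1 and 6.15 TPM in replicate 2. Snord13, a guide of an acetyl modification on small subunit ribosomal RNA, is 104 nt long and had 0 counts in both libraries. Rian, the spliced host of the imprinted C/D array on chromosome 12, was at 251 TPM in replicate 1 and 151 TPM in replicate 2. Genes named Snord113, Snord114 or Snord115 were not found under those symbols in the annotation, and what their host makes was not analysed here.

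Many members carry no functional name. By symbol, 24 were Snora genes, 5 Snord genes, 18 scaRNAs, 10 U3 copies and 50 others, and 60 of the 107 had a Gm symbol. RefSeq (assembly GRCm38.p6) places a snoRNA or guide RNA at the position of 95 members. Of the 50 others, 34 held an ACA box, 3 held both C and D boxes and 13 held neither ACA nor both C and D boxes.

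The highest level belonged to an unnamed H/ACA-type gene. Gm22988, in Eif4a1, the gene of a translation initiation helicase, stood at 2181.9 TPM in replicate 1 and 2213.28 TPM in replicate 2, from 3305.03 and 3113.59 counts. Gm26447, in the paralogous host Eif4a2, was at 1391.85 TPM in replicate 1 and 1238.22 TPM in replicate 2. Both genes lie wholly within annotated retained-intron exons of their hosts, so reads of those transcripts cannot be told apart from reads of the snoRNA. Their effective lengths are also short, at 45 nt for Gm22988 and 30 nt for Gm26447, and on the whole length Gm26447 moved down to place 10 while Gm22988 stayed first.

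Among H/ACA members with a Snora symbol, 5 genes stood above 90 TPM in both libraries. Snora73b and Snora73a, the U17 RNAs that act in cleavage of the ribosomal precursor, were at 988.6 and 811.03 TPM in replicate 1 and at 919.87 and 786.05 TPM in replicate 2. Snora74a, in the non-coding host AC121821.1, was at 618.99 TPM in replicate 1 and 561.91 TPM in replicate 2. Snora44 had 125.63 and 99.09 TPM in replicates 1 and 2, and Snora23, in the importin gene Ipo7, had 98.21 and 92.95 TPM. The next were Snora68, Snora17 and Snora52, at means of 46.8, 45.5 and 39.3 TPM. The 24 Snora members ranged from 1.48 to 954 TPM in mean level, with a median of 29.7 TPM.

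All 5 Snord members are longer than the usual C/D RNA. Snord15b and Snord15a, guides of ribose methylation on large subunit ribosomal RNA, were at 476.87 and 225.54 TPM in replicate 1 and at 375.47 and 186.05 TPM in replicate 2. Snord17 had 304.13 TPM in replicate 1 and 278.46 TPM in replicate 2, and Snord22 had 269.58 and 212.57 TPM. Snord118 was the lowest of the 5, at 28.06 TPM in replicate 1 and 23.99 TPM in replicate 2. Outside the Snord symbols, the C/D gene Gm22486 had 279.1 TPM in replicate 1 and 305.57 TPM in replicate 2. Gm25835 of Eif4a1 had 228.42 and 199.75 TPM in replicates 1 and 2.

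Further unnamed genes were found in hosts of translation, import and transcription. Gm23262, in the initiation factor gene Eif4g2, stood at 228.86 TPM in replicate 1 and 208.79 TPM in replicate 2, against 283.97 and 299.25 TPM for the host. Gm26397, in Tomm20 of the mitochondrial import receptor, had 119.68 TPM in replicate 1 and 116.07 TPM in replicate 2. Gm22422, in the mitochondrial tRNA processing gene Trmt10c, had 116.36 and 106.63 TPM, far above the 6.01 and 5.97 TPM of the host. Gm25776, in the general transcription factor gene Gtf2a1, had 112.08 and 114.87 TPM in replicates 1 and 2. Only Gm22422 and Gm25776 of these 4 have another annotated gene at 80% identity or more. Gm24119, in the mitochondrial phosphate carrier gene Slc25a3, had 91.95 and 88.78 TPM, below its host at 239.37 and 232.38 TPM.

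The scaRNAs were led by the longest genes. Scarna10, which the annotation types as snoRNA and which carries guides for the spliceosomal U5 RNA, stood at 976 TPM in replicate 1 and 970.11 TPM in replicate 2. Scarna2, a guide of U2 RNA, had 460.05 TPM in replicate 1 and 464.49 TPM in replicate 2. Gm22009 in Kpna4 had 307.55 and 268.36 TPM in replicates 1 and 2, and Gm26083 in Snhg20 had 210.53 and 179.37 TPM. Scarna6 and Gm25395, both in Atg16l1, stood at 176.64 and 158.33 TPM in replicate 1 and at 158.01 and 161.42 TPM in replicate 2. Scarna13, in Snhg10, had 163.73 TPM in replicate 1 and 163.03 TPM in replicate 2, and Gm22442 in Chd3 had 158.44 and 135.06 TPM. In counts, Scarna10, Scarna2 and Gm22009 together took 26.2% of all member counts in replicate 1 and 27.0% in replicate 2.

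U3 was the highest snoRNA when its copies were summed. The 10 U3 gene IDs took 3799.33 TPM in replicate 1 and 3609.8 TPM in replicate 2, or 21.5% and 21.8% of the members' TPM. Of this, 8 Rnu3b IDs at 4 loci took 3427 and 3286.88 TPM in replicates 1 and 2, and 2 Rnu3a IDs at 1 locus took 372.33 and 322.92 TPM. Within Rnu3b, each of 4 copies of 215 nt was listed at 576.7 TPM in replicate 1 and 609.14 TPM in replicate 2. Each of the 4 overlapping IDs of 216 nt was listed at 280.05 and 212.58 TPM in replicates 1 and 2. The copies of each length are identical in sequence, so their equal values are the quantification's split of shared reads and carry no information on which locus was transcribed. The deposited credibility interval of 1 copy, ENSMUSG00000098925.1, ran from 36.5 to 1063 TPM in replicate 1 and from 1.91 to 1284 TPM in replicate 2. Host values for the 4 Rnu3b loci were left out where each member is compared with its host, but not from the medians by host type. These loci lie in intron 2 of Tex14, a testis gene at 0.19 TPM in replicate 1 and 0.23 TPM in replicate 2.

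Near the threshold, membership rested on single reads. The members just inside had 1 or 2 counts in their lower library, for example Snora30 with 1.92 TPM from 2 counts in replicate 1 and 1.03 TPM from 1 count in replicate 2, and Gm22897 with 1.06 and 1.14 TPM from 1 count each. Just outside stood Gm23722, with 0.96 TPM from 1 count in replicate 1 and 2.06 TPM from 2 counts in replicate 2, and Gm25631, with 0.96 and 1.03 TPM from 1 count each. There were 20 genes at 1 TPM or more in replicate 1 only and 22 in replicate 2 only. In 30 members at least 1 library had under 10 counts, and 41 members had 100 counts or more in both.

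Of the 107 members, 99 lay inside a gene on the same strand, all within an intron, in 78 different hosts. By the annotated gene type, protein-coding hosts numbered 66 and held 82 members, and 12 non-coding hosts held 17. Cct6a counts as non-coding here only because its gene is typed as a processed transcript. The other 8 IDs had no host on the strand: Scarna2, both Rnu3a IDs, Snord118, Snora17, Snora43, Snora57 and Gm23119. With U3 left out, 91 members had a host, and 43 stood above their host in TPM in both libraries, 45 stood below, and 3 changed sides between libraries. When the whole length replaced the effective length, 25 stood above and 62 below, so the count above the host depends on the length used. The mean level of members followed that of their hosts with a Spearman rho of 0.105 and a Pearson r of 0.102 over 91 genes, a description of points that share libraries and, in part, hosts.

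Members far above their host were found in non-coding and in protein-coding hosts. Scarna10 stood at 976 TPM in replicate 1 and 970.11 TPM in replicate 2, against 20.7 and 17.36 TPM for the condensin gene Ncapd2. Among non-coding hosts, Snora73b stood at 988.6 TPM in replicate 1 and 919.87 TPM in replicate 2, against 15.63 and 14.11 TPM for Snhg3. Snora74a stood at 618.99 and 561.91 TPM in replicates 1 and 2, against 5.07 and 4.7 TPM for AC121821.1. Annotated exons on the strand cover all 196 nt of Snora74a and 281 of the 325 nt of Scarna10. Reads of those longer transcripts cannot be told apart from reads of these members. Scarna13 stood at 163.73 and 163.03 TPM, against 1.1 and 1.39 TPM for Snhg10. Gm24411 was listed below its non-coding host, with 3.75 and 2.39 TPM, against 5.23 and 4.13 TPM for Snhg17. It rested on 4.04 and 2.39 counts in replicates 1 and 2, and its deposited intervals contain the host values. The other member in Snhg17, Gm23925, was listed above the host, at 80.01 and 55.46 TPM. Its interval in replicate 1 reached down to 0.622 TPM. Members in non-coding hosts had a median of 33.9 TPM, beside a median of 6.15 TPM for those hosts. Members in protein-coding hosts had a median of 41.9 TPM, beside 32.6 TPM. The protein-coding medians include the 8 Rnu3b IDs in Tex14, a host at a mean of 0.21 TPM, so they do not describe members apart from U3.

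Members far below their host were found in abundant hosts. Snora31 had 12.46 TPM in replicate 1 and 10.32 TPM in replicate 2, against 1062.23 and 1006.32 TPM for its host Tpt1, which codes for a translationally controlled protein. The 13 members in 12 ribosomal protein genes had a median of 30.9 TPM beside a median of 277 TPM for those hosts. Of these 13, 4 stood above the host in both libraries and 9 below. Gm26448 stood above, with 465.9 and 455.52 TPM in replicates 1 and 2, against 313.34 and 280.35 TPM for Rpsa.

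**Figure D3:**
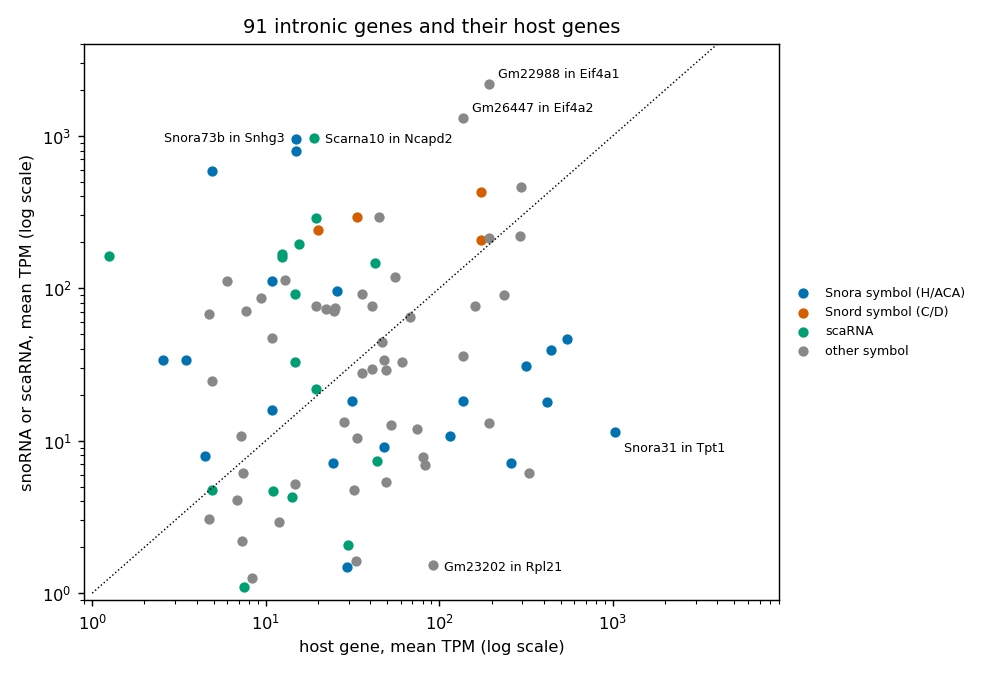
Mean TPM of each of the 91 members with a host (U3 left out) against the mean TPM of its host gene, both on log scales, with a dotted line at equality. Points lie on both sides of the line, from Snora73b, Scarna10 and Gm22988 above their hosts to Snora31 and Gm23202 below.

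Members cut from 1 host often differed in level. Eif4a1 holds Gm22988 in intron 4, Gm25835 in intron 5 and Gm24029 in intron 9, at mean levels of 2198, 214 and 13.1 TPM, so that the highest exceeded the lowest 149-fold in replicate 1 and 191-fold in replicate 2. Eif4a2 holds Gm26447, Gm24616 and Snora81, at 1315, 36.1 and 18.2 TPM, a span of 85.4-fold in replicate 1 and 61.5-fold in replicate 2. The span is narrower in counts, because the effective length is 30 nt for Gm26447 and 79 nt for Snora81. Gm26447 had 1405.53 and 1161.27 counts in replicates 1 and 2, and Snora81 had 43.32 and 49.69. Snora74a exceeded Mir1949, a gene the annotation types as snoRNA, 24.5-fold and 23.7-fold in replicates 1 and 2 within AC121821.1. Within Snx5, Snord17 had 304.13 and 278.46 TPM in replicates 1 and 2, and Gm26165 had 15.23 and 5.74 TPM, from 20 and 7 counts. Other hosts held members of close level: Snord15b over Snord15a was 2.11 and 2.02 within Rps3, Snora73b over Snora73a was 1.22 and 1.17 within Snhg3, and Scarna6 over Gm25395 was 1.12 in replicate 1 and 0.979 in replicate 2 within Atg16l1. The 12 hosts with more than 1 member besides Tex14 thus spanned from about equal levels to over 100-fold.

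The distance to the next exon also varied. The 99 intronic IDs lay at a median of 392 nt upstream of the following exon. With U3 left out, 91 remained, and in 21 of them this distance was 60 to 100 nt, with a median of 76.7 TPM and a range from 4.72 to 1315 TPM. The other 70 had a median of 31.7 TPM and ranged from 1.1 to 2198 TPM. Of the 15 highest intronic members, 8 lay in that range, among them Gm26447 at 73 nt, Scarna10 at 77 nt, Snora73b at 78 nt and Snora73a at 76 nt. This range was chosen after the values were seen, and the difference is a description without a test.

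Copies of nearly the same sequence stood at very different levels. At 80% identity or more, 46 members fell into 16 families, and 69 members had at least 1 other annotated gene that similar. Gm22988 exceeded Gm25291 in Sec24a 25.6-fold in replicate 1 and 25.7-fold in replicate 2, Gm24727 in Gsr 28.5-fold and 32.1-fold, and Gm25117 in Nap1l1 47.9-fold and 51.0-fold. Of 25 annotated genes this similar to Gm22988, 22 had 0 counts in both libraries. Gm25791 in Taf1d exceeded Gm26236 in Eng, 3 edits apart, 62.9-fold in replicate 1 and 51.2-fold in replicate 2, with 98.06 and 86.05 TPM against 1.56 and 1.68 TPM. Snora57 had 32.74 and 24.15 TPM, against 1.21 and 1.31 TPM for Gm26132. In each of these pairs the deposited credibility intervals did not overlap in either library. The copies share most of their letters, so reads from 1 copy that carry a mismatch, or CAST/EiJ alleles, could be counted on another, and this was not tested. Gm25791 lies wholly within an exon of a Taf1d transcript annotated for nonsense-mediated decay. Among the lowest copies, Gm26236 and Gm26132 rest on 2 counts in each library.

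**Figure D4:**
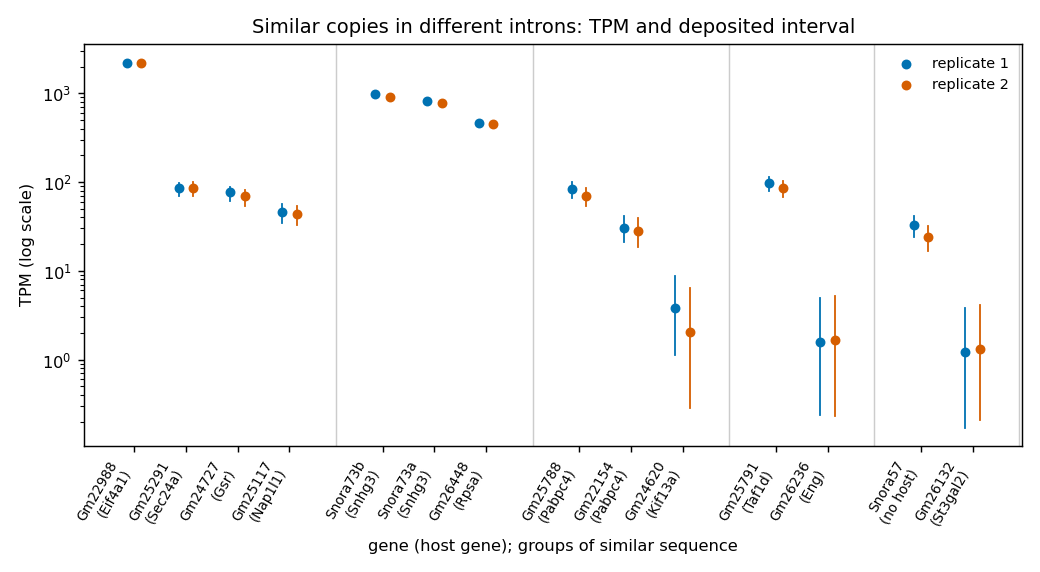
TPM (log scale) in replicate 1 (blue) and replicate 2 (orange) of 14 members in 5 groups of similar sequence, with the deposited credibility intervals as lines and the host gene below each name. Within each group the first copy is highest in both libraries, and Snora73b and Snora73a are the closest in level.

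Other related members ranged from close to far apart. Gm25788 and Gm22154, both in Pabpc4 and 4 edits apart, stood at 83.55 and 30.64 TPM in replicate 1, and at 69.97 and 27.99 TPM in replicate 2. Their relative Gm24620 in Kif13a, 3 edits from Gm25788, had 3.83 TPM in replicate 1 and 2.06 TPM in replicate 2, so that Gm25788 exceeded it 21.8-fold and 34.0-fold, with intervals apart in both libraries. Scarna3a and Scarna3b stood at 10.14 and 2.97 TPM in replicate 1 but at 4.68 and 6.4 TPM in replicate 2, with overlapping intervals. Snora17 had 53.11 TPM in replicate 1 and 37.8 TPM in replicate 2, and of 149 annotated genes at 80% identity or more with it, 146 had 0 counts in both libraries and 1 was a member, Gm25053 in Tmem245. That gene had 3.6 TPM in replicate 1 and 6.79 TPM in replicate 2, from 4 and 7 counts.

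Annotated exons overlapped 36 of the 107 members on the same strand, 24 of them over their whole length, and in 18 the overlap was with retained-intron transcripts only. These 36 had a median of 34.9 TPM, beside 47.3 TPM for the 71 without overlap. Whether their reads came from the mature snoRNA or from the longer transcript cannot be told from these tables. Besides those named above, the 24 wholly covered members include Snord15b, Snora81, Gm24029, Snord22 and Gm26083. Exons also cover 150 of the 168 nt of Gm23262. Snord15a has no such overlap, so the ratio of Snord15b over Snord15a within Rps3 carries this limit too.

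Replicate 1 over replicate 2 was compared by a two-sided exact binomial test of counts scaled with TMM, adjusted over all genes tested, which measures counting error between these libraries only. Of the 107 members, 83 had a summed count of at least 20 and were tested, and none was called at an adjusted p under 0.05 with at least 2-fold change. Over all genes, 6.85% of 18883 tested were called (4.11% higher in replicate 1 and 2.74% higher in replicate 2), and 3.10% of 14090 among genes detected in both (2.32% higher in replicate 1 and 0.781% higher in replicate 2). At an unadjusted p under 0.05, 21 members differed, and 12 passed the adjusted threshold at any fold, 8 higher in replicate 1 and 4 in replicate 2. That is 14.5% of tested members, beside 28.1% of detected genes. Of these 12, 9 are U3 IDs whose reads are split between copies. The other 3 were Snord15b (log2 0.29, exact adjusted p = 0.0018), Gm22009 (log2 0.15, exact adjusted p = 0.00334) and Gm23442 in Prrc2a (log2 0.70, exact adjusted p = 0.0183), all higher in replicate 1. The deposited intervals of these 3 did not overlap between libraries, nor did those of Gm26447, Snora73b, Snora74a and Gm26083. For Gm23442 they ran from 64.6 to 96.6 TPM in replicate 1 and from 35.6 to 61.3 TPM in replicate 2.

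The members leaned slightly to replicate 1. The log2 ratio was above 0 in 58 of 83 tested members (69.9%), against 49.2% of tested genes detected in both. Its median was 0.10, against 0.01 over all tested genes and -0.0035 over tested genes detected in both. The 83 include 10 U3 IDs at 5 loci, 6 of them above 0, whose values rest on reads split between copies. The log2 ratio ranged from -0.50 in Gm25394 to 1.31 in Gm26493, which had 23 counts in replicate 1 and 8 in replicate 2. Among the 54 tested members of up to 150 nt the median was 0.13 and 41 were above 0, and among the 29 longer ones it was 0.05 and 17 were above 0. The 55 hosts of tested members had a median of 0.03, and none was called. In the same libraries all 4 liver markers and all 4 skeletal muscle markers were called higher in replicate 1, and all 4 kidney markers higher in replicate 2, and their part in the members' ratios was not tested. In bulk tissue, fewer cells of a type and less RNA per cell cannot be told apart. Both sets of guide proteins were present: the C/D proteins Fbl, Nop56, Nop58 and Snu13 summed to 121.51 TPM in replicate 1 and 108.88 TPM in replicate 2, the H/ACA proteins Dkc1, Nop10, Nhp2 and Gar1 to 97.11 and 95.13 TPM, and none of the 8 was called. Under the 2-fold limit, Nop58 was higher in replicate 1 (log2 0.20, exact adjusted p = 0.00147). Nop10 was higher in replicate 2 (log2 -0.28, exact adjusted p = 2.58e-06). The others of the 8 did not pass the adjusted threshold. Of 11 assembly genes, 8 processing and decay genes and 5 Cajal body and telomerase genes, all were detected in both libraries and none was called. Only Tcof1 among them passed the adjusted threshold at any fold (log2 0.21, exact adjusted p = 0.0261). None of 11 spliced non-coding genes on a fixed list was called, but they summed to 857.9 TPM in replicate 1 and 585.53 TPM in replicate 2. Not every gene on that list was shown here to host a snoRNA, and Meg3 alone took 399.2 TPM in replicate 1 and 252.5 TPM in replicate 2. The imprinted genes Meg3, Rian and Mirg had log2 ratios of 0.62, 0.70 and 0.69, and Gas5 had 0.13. The ratios of these imprinted genes were under the 2-fold limit but past the adjusted threshold by the exact test. The same held for Snhg12 (log2 0.33, exact adjusted p = 0.0315). Rpph1, Rn7sk, Terc and both Rmrp IDs were detected in both libraries and not called. Rpph1 (log2 -0.12) and the Rmrp ID typed as ribozyme (log2 -0.17) were past the adjusted threshold by the exact test, higher in replicate 2.

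**Figure D5:**
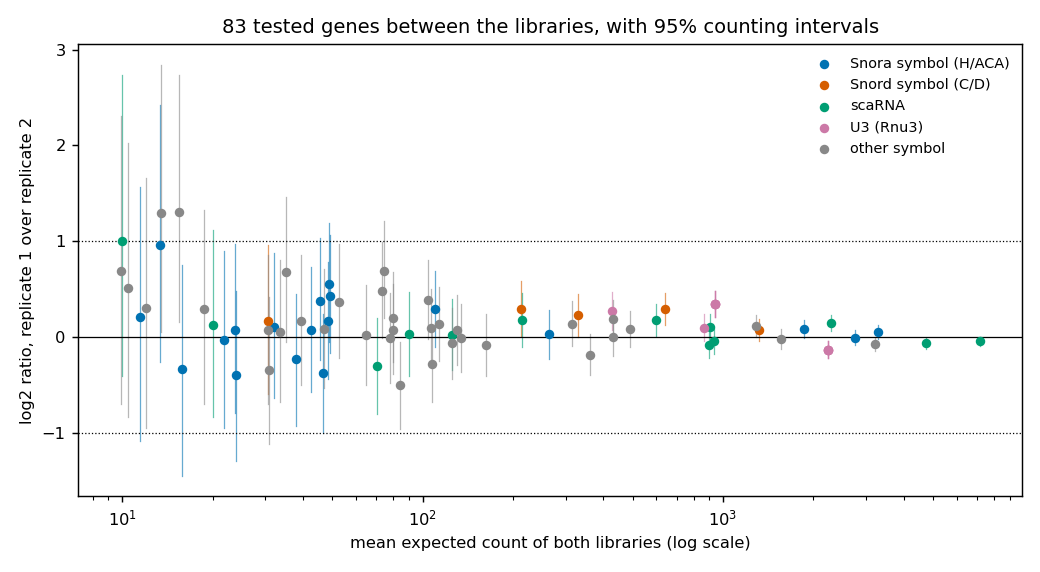
Log2 ratio of replicate 1 over replicate 2 against the mean expected count (log scale) for the 83 tested members, with 95% exact counting intervals as lines and dotted lines at 2-fold. Ratios beyond 2-fold occur only among members with few counts, and most points lie slightly above 0.

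The deposited quantification of the other kind, with kallisto column names, measured almost none of these genes. It gave counts to 3 members, all of at least 325 nt, and 0 to the other 104. There Scarna2 stood at 451 TPM in replicate 1, and at 437 TPM in replicate 2, near its 460.05 and 464.49 TPM in the gene table, and Gm22009 at 271 and 247 TPM. Scarna10 stood at 3.96 and 3.72 TPM there, against 976 and 970.11 TPM in the gene table. That table listed every snoRNA and scaRNA gene of up to 313 nt at 0 counts, also Snora73b with its 3527.4 and 3048.21 counts in the gene table, so 0 there does not show that a gene is silent.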

How the data were processed

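Total RNA-seq of adrenal gland was deposited as gene tables and transcript tables for 2 libraries. Values refer to the mm10 build and GENCODE M21, per the file headers and deposited notes. The names and versions of aligner and quantifiers were not given in the sources read. The gene tables hold expected counts, TPM scaled over all features (spike-ins included) and bounds of a credibility interval of TPM, a signal range, all made by the authors with RSEM column names. The other tables, which the authors deposited with kallisto column names, hold estimated counts and TPM. Strand use and CAST/EiJ variants in the counting are not given, so overlapping genes are uncertain.

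The members and gene lists were chosen with earlier results of these data known. The named genes are the 8 highest of each class, members at the threshold, members inside the hosts with most members, those that differ most between tables, and fixed lists; others were chosen after their values were seen. Hosts are the genes that contain a member on its strand, the one with the highest TPM if several. Families join genes at 80% identity or more by edit distance.

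Expected counts were rounded, scaled with TMM (edgeR 4.0.16, R 4.3.3), filtered at a summed count of 20 and tested per gene with an exact binomial test, Benjamini-Hochberg adjusted; a call needs an adjusted p under 0.05 and 2-fold. Log2 ratios carry a prior count of 0.5. Numbered features (7 and 6 counts in replicates 1 and 2) stayed out. Intervals are exact at 95% and, like the limit of 3 counts for a count of 0, cover counting error only. Steps were tested on simulated data. Software was Python 3.11.15, scipy 1.17.1, numpy 2.4.6 and matplotlib 3.10.9.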

Additional observations from a re-analysis of the deposited data

How the results depend on the processing

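The number of members was 107. It was 120, 99 and 77 at thresholds of 0.5, 2 and 10 TPM, 77 with at least 10 counts in both libraries, 102 with overlapping IDs counted once, and 127 to 129 with 1 library left out. It became 481 with the posterior mean TPM, which gives genes at 0 counts a value above 0, and 3 in the kallisto-type table. The median level was 44.5 TPM; it was 37.1 to 45.6 TPM with 1 library left out, 0 in the kallisto-type table and 35.0 TPM with overlapping IDs counted once. No member was called between libraries, but 1 was with total count scaling and 12 were without a fold limit. Over all genes, 1294 were called, 802 with a summed count of at least 100 and 5007 without a fold limit. The median log2 ratio of members lay between 0.01 and 0.16 under the alternatives, the lowest resting on the 2 members tested in the kallisto-type table. Members above their host numbered 43, or 25 on the whole length, an alternative chosen after seeing the data, as was counting overlapping IDs once. Total count scaling gave a median over all genes of 0.07 on the log2 scale, against 0.01 with TMM. No paired analysis was possible because the series has 1 group. The short effective lengths and 30 members with under 10 counts in a library limit the levels.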
